A study of Danio rerio with 8 samples.

Results

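The tetraspanin genes cd9b (ENSDARG00000016691) and cd37 (ENSDARG00000075515) were examined in macrophage reporter cells sorted from the injured zebrafish heart. They are 2 of the 10479 genes measured, selected on their measured difference between the populations, at opposite ends of the comparison, so their own difference is described and not tested. They were set against 4 identifiers with the symbols CD63, CD81 and CD82, against 16 further genes of the tetraspanin family, and against fixed lists of tetraspanin partners. No identifier with the symbol CD151 was analysed here.

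Tetraspanins cross the membrane 4 times and organise other membrane proteins, such as integrins, proteases and receptors, into clusters. In mammals CD9 is abundant on platelets, many epithelia and macrophages, where it limits the fusion of macrophages into giant cells. CD37 is restricted to blood cells in mammals, is most abundant on mature B lymphocytes, and takes part in B cell survival and in antigen presentation. CD63 resides mainly in late endosomes and lysosomes, CD81 is found on many cell types, and CD82 is known as a suppressor of metastasis.

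Adult zebrafish (Danio rerio) aged 6 to 9 months carried both wt1b:eGFP and mpeg1:mCherry, reporters that show promoter activity of a zinc finger transcription factor gene and of a macrophage gene. All hearts were cryoinjured and sampled at 4 days post injury, so no library comes from an uninjured heart. Cells with mCherry alone (single positive) and cells with eGFP and mCherry (double positive) gave 4 libraries each, numbered 1, 2, 4 and 5, and each library came from a pool of 5 to 7 hearts. Libraries 1 and 2 of each population were built in batch 1, libraries 4 and 5 in batch 2. In adult zebrafish, mpeg1 reporters are known to mark B lymphocytes as well as macrophages.

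Normalized counts added up to 803220 to 1021901 per library, and the read depth behind these values is unknown. In double positive library 1, 42.3% of genes had a value under 1, against 10.7% to 19.7% in the other 7 libraries. The wt1b transcript itself ran from 0.122 to 0.469 normalized counts in single positive libraries and from 13.6 to 63.1 in double positive ones. Of 13 macrophage marker symbols 11 were matched by 20 genes, whose summed values were 1601 to 3463 in single positive libraries, against 4959 to 9107 in double positive ones. Levels are normalized counts, and whether they were divided by transcript length is not stated. They are therefore compared mainly between libraries for the same gene. Where values of different genes are subtracted, summed or ranked by abundance below, transcript length may enter the level itself.

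Double positive cells had cd9b and almost no cd37, whereas single positive cells had cd37 and, in 3 of 4 libraries, almost no cd9b. In double positive libraries 1, 2, 4 and 5, cd9b had 95.5, 163, 222 and 237 normalized counts. In the single positive libraries of the same numbers it had 11.8, 0.242, 0.154 and 0.482. No double positive library was as low as any single positive one, and single positive library 1 was the only one of its population above 1. The means were 3.16 ± 5.74 in single and 179 ± 64.4 in double positive cells (SD, n = 4 each), and the fitted log2 fold change was 6.22 (SE 0.91). It was 4.98 in batch 1 and 7.46 in batch 2, and 7.14 without single positive library 1. Changes were fitted on log2(value + 1) with library batch as a covariate, so the change of a gene with low values is understated. Over all tested genes the median log2 change was -0.40 in batch 1 and 0.08 in batch 2. The changes given per batch, here and below, are not corrected for that shift.

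The second gene, cd37, had 67.5, 186, 283 and 94.2 normalized counts in single positive libraries 1, 2, 4 and 5. In double positive libraries it had 0.340, 0.270, 0.347 and 0.182. The groups did not overlap, and all 4 double positive values lay under 1, a range in which a value may be a product of the normalization rather than of reads. The means were 158 ± 97.8 and 0.285 ± 0.077 (SD, n = 4 each), and the fitted log2 fold change was -6.73 (SE 0.97), with -6.44 in batch 1 and -7.03 in batch 2. Since 1 population of each gene lies near the bottom of the scale, the size of either change depends on the constant added before the logarithm. With 0.1 in place of 1 the log2 fold changes were 7.59 for cd9b and -8.48 for cd37, and with 5 they were 4.63 and -4.74.

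**Figure D1:**
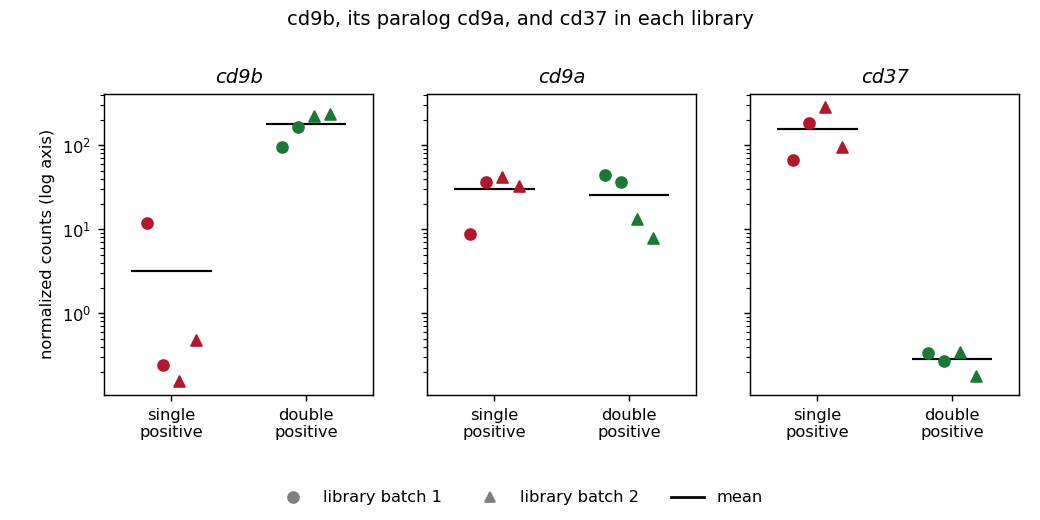
Normalized counts (log axis) of cd9b, its paralog cd9a and cd37 in each of the 4 single positive (red) and 4 double positive (green) libraries. Circles are batch 1, triangles batch 2, and the black line is the mean; cd9b and cd37 separate the populations in opposite directions, while cd9a values of the populations overlap.

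Among 10127 genes tested, cd9b ranked 2 by size of rise and cd37 ranked 2 by size of fall. Single positive library 1 had the highest cd9b and the lowest cd37 of its population.

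The paralog cd9a (ENSDARG00000005842) did not follow cd9b. It had 8.82, 36.1, 41.9 and 32.9 normalized counts in single positive libraries 1, 2, 4 and 5, against 44.3, 37.0, 13.3 and 7.97 in the double positive ones. These values overlap, and the log2 fold change was -0.32 (SE 0.79, 95% interval -1.99 to 1.36, limma adjusted p = 0.893). Its sign differed between the batches, with 1.12 in batch 1 and -1.75 in batch 2. The log2 level of cd9a minus that of cd9b averaged 3.56 in single and -2.97 in double positive libraries. Because cd9b was chosen for its change, that shift between the paralogs is given without a test.

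Of the 4 reference tetraspanins, both CD63 and CD81 rose in double positive cells, 1 CD82 identifier fell, and the other did not pass the threshold. A gene was called at a limma adjusted p under 0.05, with adjustment over all 10127 genes, of which 393 (3.88%) were called higher and 285 (2.81%) lower, or 6.69% in either direction. With each library centred to a common median the split was 542 higher and 220 lower, and the calls of these 4 genes did not change. The reference genes had 2 called higher and 1 called lower. With only 4 genes these counts are a description and not a test of the family.

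CD63 (ENSDARG00000025147), the tetraspanin of late endosomes and secreted vesicles, had 938, 804, 509 and 773 normalized counts in single positive libraries 1, 2, 4 and 5. In the double positive libraries it had 990, 1217, 1444 and 1385. The populations did not overlap, but double positive library 1 exceeded single positive library 1 by little. The means were 756 ± 179 and 1259 ± 203 (SD, n = 4 each), for a log2 change of 0.75 (SE 0.22, limma adjusted p = 0.0454). The change was 0.34 in batch 1 and 1.17 in batch 2. Leaving out library 2, 4 or 5 of either population ended the call, with limma adjusted p from 0.0721 to 0.155.

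CD81 (ENSDARG00000036080) had 323, 490, 125 and 207 normalized counts in single positive libraries 1, 2, 4 and 5. The double positive libraries had 479, 671, 657 and 748. Single positive library 2 lay slightly above double positive library 1, so the groups overlapped by that pair alone. The mean rose from 286 ± 158 to 639 ± 114 (SD, n = 4 each), for a log2 change of 1.32 (SE 0.31, limma adjusted p = 0.0173). Between batches the change ran from 0.51 in batch 1 to 2.12 in batch 2, beside medians of all tested genes of -0.40 and 0.08. Leaving out library 4 or 5 of either population ended the call, with limma adjusted p from 0.0638 to 0.0922.

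CD82 was carried by 2 identifiers. CD82 ENSDARG00000026070 had 105, 90.8, 52.9 and 28.0 normalized counts in single positive libraries 1, 2, 4 and 5, against 0.455, 0.824, 11.1 and 1.54 in the double positive ones. Every double positive value lay below every single positive value, and double positive library 4 held the highest of them. The mean fell from 69.2 ± 35.1 to 3.47 ± 5.08 (SD, n = 4 each), for a log2 change of -4.38 (SE 1.03, limma adjusted p = 0.0160). It was -5.92 in batch 1 and -2.84 in batch 2. The call ended when single positive library 1, 2 or 4 was left out, or double positive library 5, with limma adjusted p from 0.0506 to 0.0950.

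CD82 ENSDARG00000019098 had 72.2, 104, 38.2 and 101 normalized counts in single positive libraries 1, 2, 4 and 5. In double positive libraries it had 61.4, 22.8, 63.6 and 56.6. The groups overlapped, and the log2 fold change was -0.62 (SE 0.50, 95% interval -1.68 to 0.44, limma adjusted p = 0.556). The log2 level of this identifier minus that of ENSDARG00000026070 averaged 0.26 ± 1.09 in single positive libraries and 4.01 ± 1.27 in double positive ones (SD, n = 4 each), with no overlap. A two-sided exact permutation test over the 8 libraries gave p = 0.0286, the smallest it can give, and 0.114 after adjustment over the 4 paralog pairs tested. A pair that alone reached that smallest p could not pass after adjustment over 4 pairs, so the adjusted value says nothing on whether the identifiers differ. How reads were divided between near-identical paralogs is not stated in the labels.

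**Figure D2:**
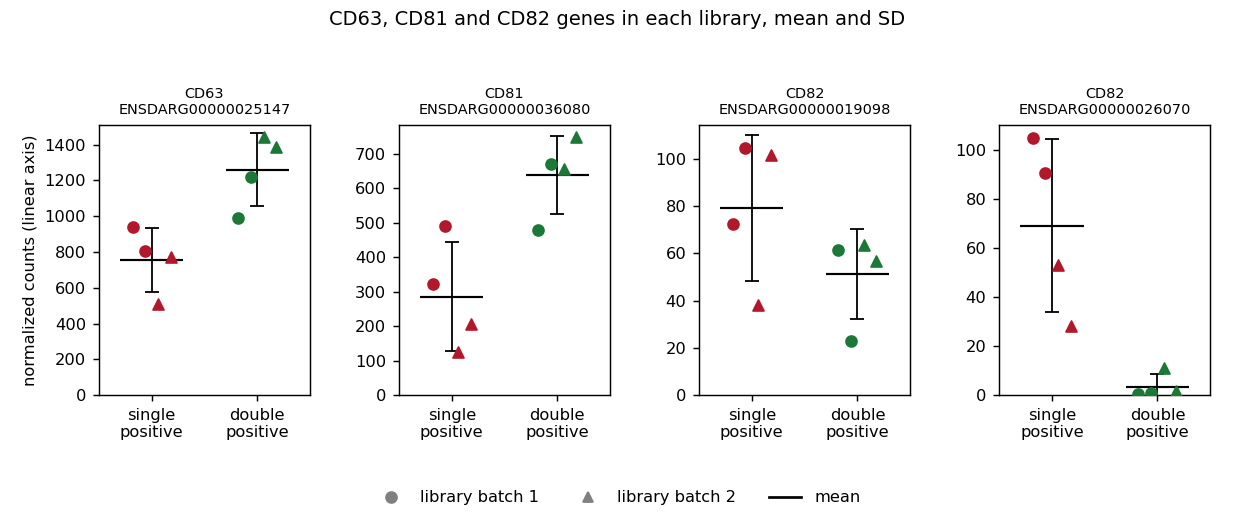
Normalized counts (linear axis) of CD63, CD81 and both CD82 identifiers in each library, with single positive libraries in red, double positive libraries in green, circles for batch 1 and triangles for batch 2. Black lines and bars are the mean and SD of 4 libraries, and bars are clipped at 0; CD63 means are 756 and 1259, CD81 means 286 and 639, and CD82 ENSDARG00000026070 means 69.2 and 3.47.

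In the rest of the tetraspanin family, as far as its symbols were matched, no gene passed the threshold. The fixed list held 40 family symbols, CD37 among them, and 11 were matched by genes other than cd9b and cd37. Symbols without a match, such as CD53, could not be examined. Of 16 tested genes outside CD63, CD81 and CD82, 0 were called higher and 0 lower by limma. Over all tested genes 6.69% were called in either direction, so 0 of 16 is near that share. An unadjusted p under 0.05 was found for 4 of the 16, and for 1932 of all 10127 tested genes. Log2 fold changes of the 16 were above 0 for 8 and below 0 for 8, and the median was -0.15, beside -0.16 over all tested genes. Groups did not overlap for 4 of the 16 genes, where 14.1% of all tested genes had no overlap in either direction. TSPAN14, TSPAN31 and tspan37 lay above in double positive libraries, and TSPAN2 lay below.

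TSPAN14, of the tetraspanin subgroup that escorts the protease ADAM10 to the cell surface, had 138, 177, 130 and 147 normalized counts in single positive libraries 1, 2, 4 and 5. In double positive libraries it had 180, 231, 289 and 256. The lowest double positive value was only just above the highest single positive one, with a log2 change of 0.68 (SE 0.28, limma adjusted p = 0.194). TSPAN31 had 20.6 to 46.5 normalized counts in single positive libraries, against 46.7 to 123 in double positive ones, with a log2 fold change of 1.24 (SE 0.51, limma adjusted p = 0.186). The fish gene tspan37 ranged from 0.108 to 25.2 and from 27.9 to 41.2, with a log2 fold change of 2.43 (SE 1.11, limma adjusted p = 0.238). These were separations without a call.

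In the opposite direction, TSPAN2 had 34.9, 36.3, 72.8 and 46.5 normalized counts in single positive libraries 1, 2, 4 and 5, against 11.9, 10.4, 0.902 and 4.82 in the double positive ones. Its log2 fold change of -2.87 (SE 0.89) had a limma adjusted p of 0.0661, and it passed the threshold under 4 of 19 alternatives, with limma adjusted p from 0.0251 to 0.0389. Its paralog tspan2b did not pass, with means of 9.76 ± 7.14 and 1.42 ± 1.59 (SD, n = 4 each, limma adjusted p = 0.412). The abundant tspan36 had 632 ± 221 normalized counts in single positive libraries and 604 ± 65.3 in double positive ones (SD, n = 4 each), with a log2 fold change of 0.01 (SE 0.25, 95% interval -0.51 to 0.52).

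For upk1a, a uroplakin gene of the family, values ran from 14.9 to 129 in single positive and from 0.385 to 112 in double positive libraries. The means were 68.2 ± 49.0 and 37.3 ± 51.4 (SD, n = 4 each), and the limma adjusted p was 0.347. Several low family members were uneven between libraries of 1 population. TSPAN6 was at 29.7 in single positive library 2 and at 0.0646 to 4.89 in the 3 remaining libraries of that population. The symbols TSPAN3, TSPAN18 (2 identifiers), TSPAN33, tspan4b, tspan5a and tspan5b also had limma adjusted p from 0.333 to 0.976. The pairs TSPAN18, TSPAN2 and TSPAN5 had exact permutation p of 0.0571, 0.514 and 0.343 for a difference in change between paralogs (two-sided, adjusted p from 0.114 to 0.514).

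**Figure D3:**
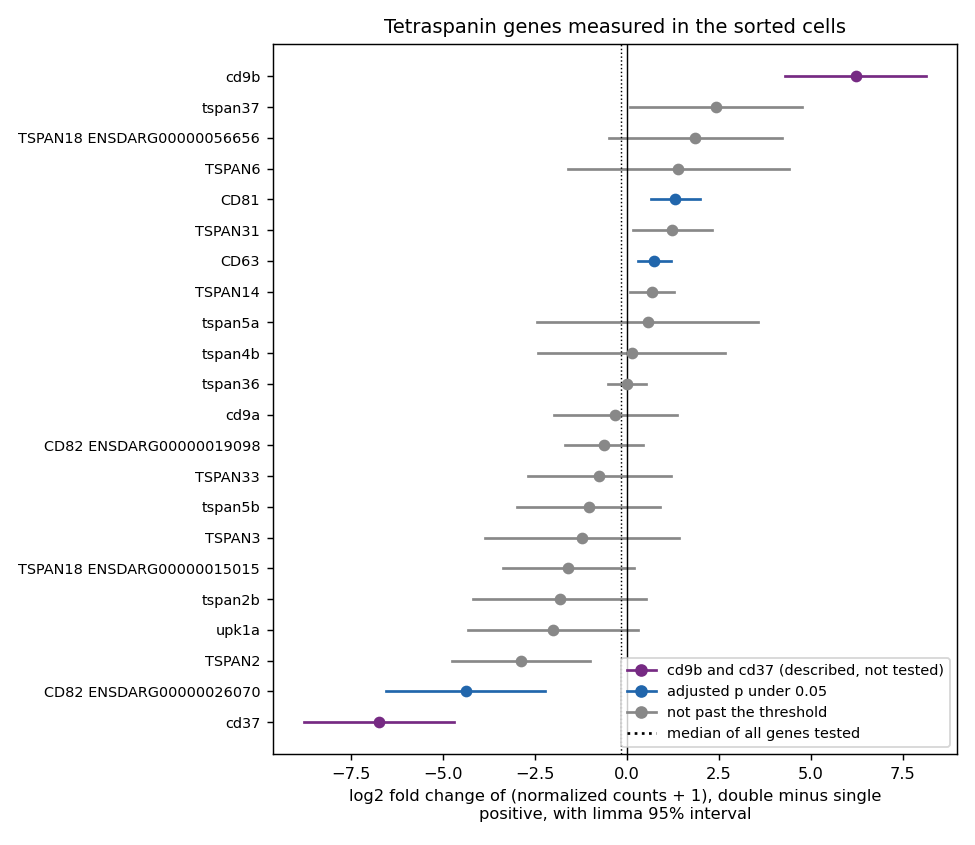
Log2 fold change of each tested tetraspanin gene, double minus single positive, on log2(normalized counts + 1), with the limma 95% interval as a line. Purple marks cd9b and cd37, blue the genes at adjusted p under 0.05, grey the others, and the dotted line the median of all tested genes at -0.16; cd9b (6.22) and cd37 (-6.73) lie at the ends.

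The genes whose profile over the 8 libraries was most like that of cd9b were arl4cb, tnk1, MFAP4 ENSDARG00000038681, FUCA2 and robo4. Their Pearson correlations of log2(value + 1) with cd9b were 0.995, 0.993, 0.991, 0.991 and 0.991. The ranking covered 5127 genes with a symbol and a mean of at least 10, and left out symbols of unnamed loci, such as those starting with si: or zgc:. All points share the same 8 libraries and their split into populations, and 186 of the 5127 genes reached 0.9. The GTPase gene arl4cb had 2.26 ± 3.68 normalized counts in single positive cells and 45.2 ± 7.68 in double positive cells (SD, n = 4 each). The guidance receptor gene robo4 had 2.85 ± 3.64 and 186.5 ± 71.2, and the fucosidase gene FUCA2 60.4 ± 14.3 and 116 ± 13.9 (SD, n = 4 each).

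Those most like cd37 were PAX5, CXCR4 ENSDARG00000057633, BAIAP3, ighm and linc-iglc3, with correlations of 0.995, 0.994, 0.994, 0.993 and 0.989 over the same 8 libraries. For cd37, 100 of the same 5127 genes reached 0.9. PAX5, a B lymphocyte transcription factor gene, had 50.9 ± 27.9 normalized counts in single positive cells and 0.172 ± 0.060 in double positive cells (SD, n = 4 each). The immunoglobulin heavy chain gene ighm had 118 ± 58.2 and 0.369 ± 0.159 (SD, n = 4 each). BAIAP3 had 52.7 ± 30.6 and 0.276 ± 0.177 (SD, n = 4 each).

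Most B lymphocyte markers moved with cd37 between the populations. Of 11 marker symbols 6 were matched by 7 genes, of which 5 were called lower and 0 higher. Of all tested genes 2.81% were called lower and 3.88% higher. In every double positive library 4 of the 7 marker genes were under 1. The summed values of the 7 were 356 to 897 normalized counts in single positive libraries, against 121 to 160 in double positive ones. Most of the double positive sum was the adaptor gene blnk, at 100 to 110, which macrophages also express in mammals. The 5 called became 3 when library 1 or 4 of the single or library 2, 4 or 5 of the double positive population was left out. The marker cd22 had 0.156 to 5.14 in single and 10.9 to 48.8 in double positive libraries. Among single positive libraries, library 4 was highest for cd37, ighm (202), PAX5 (92.7), cd79a (83.6), irf4b (175) and blnk (326). The remaining markers did not follow cd37 there. IRF4 was highest in library 1 (20.8 against 17.3 in library 4), which had the lowest cd37. For cd22 the highest was library 2 (5.14 against 0.418 in library 4). The part of B lymphocytes in the cd37 difference was not tested, and in bulk libraries fewer cells of a type and less RNA per cell cannot be told apart.

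Most macrophage markers moved with cd9b, with 13 of 20 tested genes called higher and 0 lower. Of all tested genes 3.88% were called higher and 2.81% lower. Several of the 13 share the symbol MFAP4 or are C1q chain genes, so they are not 13 separate markers. Single positive library 1 was the only one of its population with cd9b above 1. It also had the highest single positive sum of the 20 marker genes, 3463 against 1601 to 2724. It held 89.5 of MPEG1 ENSDARG00000043093 and 92.2 of the scavenger receptor gene marco, against 4.98 to 16.9 and 2.09 to 10.2 in the other single positive libraries. Not every marker of the list was highest in that library. Library 2 held the highest single positive cd68 (760 against 666 in library 1) and MFAP4 ENSDARG00000089667 (25.9 against 7.99). The same held for MFAP4 ENSDARG00000090557, MFAP4 ENSDARG00000088745 and MPEG1 ENSDARG00000078569. For grnb, library 4 was highest (63.7 against 13.9 in library 1). Another identifier, MPEG1 ENSDARG00000055290, did not follow cd9b, with 302 to 536 in single and 167 to 452 in double positive libraries. Both populations were sorted on an mpeg1 reporter, so MPEG1 levels may not be independent of the sort. The receptor gene csf1rb had 172, 161, 117 and 50.1 in single positive libraries 1, 2, 4 and 5, against 27.5, 52.0, 68.3 and 51.9 in the double positive ones, with a log2 change of -1.23 (limma adjusted p = 0.150). Also present in both populations was cd68 at 300.5 to 760 in single and 496 to 1046 in double positive libraries. The share of macrophages in each sort was not tested.

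**Figure D4:**
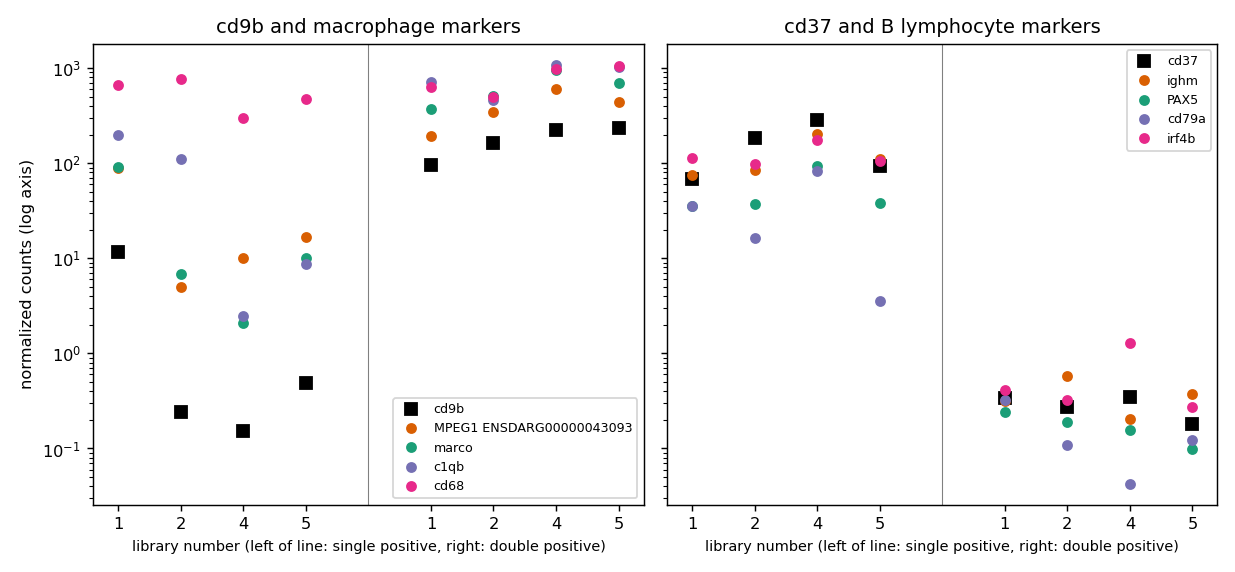
Normalized counts (log axis) in each library for cd9b with 4 of 20 macrophage marker genes (left) and for cd37 with 4 of 7 B lymphocyte marker genes (right). The markers drawn were picked with their values known. Among those not drawn, cd22 was higher in double positive libraries, blnk was not called, and csf1rb and MPEG1 ENSDARG00000055290 did not follow cd9b. Black squares are the tetraspanins and coloured circles the markers; cd37, ighm, PAX5, cd79a and irf4b are all above 3 in single positive and under 2 in double positive libraries. In single positive library 1, cd9b is at 11.8, and MPEG1 ENSDARG00000043093 and marco have their highest single positive values, while cd68 is highest in library 2.

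Summed markers of thrombocytes and of epicardial cells, in whose mammalian counterparts CD9 is found, overlapped between the populations. Thrombocyte symbols were matched for 3 of 7 by 3 genes, THBS1, F2R and GP1BB, with sums of 0.307 to 30.8 in single and 6.65 to 31.8 in double positive libraries and 0 called. Epicardial and fibroblast symbols were matched for 6 of 11 by 7 genes, with sums of 115 to 900.1 and 139 to 1112, and 1 gene, wt1b, called higher. The double positive cells were sorted on a wt1b reporter, so this call is no separate evidence on epicardial cells. Of all tested genes 3.88% were called higher and 2.81% lower. Endothelial sums were 108 to 363 and 91.7 to 201, with 0 of 5 genes called. Within that list cdh5 had 52.3 to 219 in single and 1.75 to 38.4 in double positive libraries (limma adjusted p = 0.0581). TIE1 went the other way, with 25.2 to 54.6 and 63.8 to 126 (limma adjusted p = 0.134). Groups without overlap were found for 14.1% of all tested genes. Neutrophil sums over 3 matched genes were 639 to 825 and 1092 to 1974, and NCF1, which macrophages also express, was called higher. Cardiomyocyte sums over 4 genes were 10.4 to 167 and 13.7 to 140, and the single erythroid gene matched, gata1a, had 0.294 to 11.8 and 0.274 to 15.6, with 0 called in either list. T and NK lymphocyte markers were matched for 0 of 9 symbols.

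Most partners of tetraspanins at the membrane did not pass the threshold. In a list of web partners, 3 of 18 tested genes rose and 1 fell, where 3.88% and 2.81% of all tested genes did, with a list median of 0.29 on the log2 scale. The integrin gene ITGA5, the alpha chain of the fibronectin receptor, had 136, 102, 45.5 and 42.8 normalized counts in single positive libraries 1, 2, 4 and 5, against 288, 295, 425 and 604 in the double positive ones. The groups were apart, with a log2 fold change of 2.40 (SE 0.39, limma adjusted p = 0.00119).

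The leukocyte integrin beta chain gene itgb2 rose from 426 ± 111 to 953 ± 90.1 (SD, n = 4 each), by 1.19 on the log2 scale (SE 0.22, limma adjusted p = 0.00272). The syndecan gene sdc4, of a heparan sulphate proteoglycan, rose from 416 ± 139 to 1170 ± 291 (SD, n = 4 each), for a log2 change of 1.53 (SE 0.26, limma adjusted p = 0.00154). The calls of ITGA5, itgb2 and sdc4 were kept when any 1 library was left out. The fallen member was EZR ENSDARG00000025091, of the ezrin linker between membrane and actin, from 422 ± 90.8 to 197 ± 91.3 (SD, n = 4 each). Its log2 fold change was -1.21 (limma adjusted p = 0.0407). The call ended when any library other than double positive library 2 was left out, with limma adjusted p up to 0.150. Median centring (limma adjusted p = 0.139) and 0.1 as the added constant (limma adjusted p = 0.052) also ended it. The other EZR identifier, ENSDARG00000020944, had 13.6 ± 9.14 and 9.17 ± 3.23 (SD, n = 4 each), with a log2 fold change of -0.30 (limma adjusted p = 0.926).

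The most abundant partners that did not pass were MSN, ITGAV, PRKCB ENSDARG00000022254, ITGB1 ENSDARG00000071863 and cd44b. MSN, of the ezrin relative moesin, had 943 ± 116 and 1177 ± 76.3 normalized counts (SD, n = 4 each), with a log2 fold change of 0.33 (limma adjusted p = 0.348). For ITGB1 ENSDARG00000071863, the integrin beta chain that pairs with most tetraspanin-bound integrins, the values were 120 ± 23.4 and 85.3 ± 41.7 (SD, n = 4 each, limma adjusted p = 0.469). Further ITGB1 identifiers did not pass either. ENSDARG00000022689 had a log2 fold change of 1.24 (limma adjusted p = 0.408) and ENSDARG00000053232 of -1.35 (limma adjusted p = 0.627). The hyaluronan receptor gene cd44b had 33.9 ± 10.1 and 10.6 ± 9.59 (SD, n = 4 each, limma adjusted p = 0.252).

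Tetraspanins also govern the shedding of membrane proteins by ADAM10 and ADAM17. In this list 2 of 13 tested genes rose and 1 fell, beside the same 3.88% and 2.81% of all genes, and the median was -0.64. The proteases did not pass, with adam10a at 196 ± 26.2 and 228 ± 21.7 normalized counts and ADAM17 ENSDARG00000043213 at 88.4 ± 17.6 and 90.7 ± 22.3 (SD, n = 4 each). Their log2 fold changes were 0.23 (95% interval -0.33 to 0.78) and 0.03 (95% interval -0.76 to 0.82). RHBDF1 ENSDARG00000036541, whose product escorts ADAM17, rose from 121 ± 50.0 to 285 ± 91.3 (SD, n = 4 each), with a log2 fold change of 1.26 (limma adjusted p = 0.0393). This call ended when single positive library 1 or library 4 or 5 of either population was left out, with limma adjusted p up to 0.184, and with quantile normalization. The other RHBDF1 identifier, ENSDARG00000017367, had 15.0 ± 23.8 and 4.33 ± 8.51 (SD, n = 4 each). Its log2 fold change was -1.70 (limma adjusted p = 0.512). The other ADAM17 identifier, ENSDARG00000093093, did not pass either, with a log2 fold change of -1.21 (limma adjusted p = 0.526).

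The ADAM10 substrates of the Notch family differed in direction. The receptor gene notch2 rose from 419 ± 104 to 1040 ± 154 (SD, n = 4 each), for a log2 change of 1.34 (SE 0.22, limma adjusted p = 0.00116). NOTCH1 fell from 178 ± 66.1 to 52.5 ± 29.8 (SD, n = 4 each), for a log2 change of -1.86 (SE 0.46, limma adjusted p = 0.0196). NOTCH1 lost its call when single positive library 2 or library 5 of either population was left out, with limma adjusted p up to 0.0904. The growth factor gene hbegfa, whose product CD9 binds in mammals, ranged from 1.18 to 100.4 in single and from 0.609 to 22.1 in double positive libraries, and did not pass (limma adjusted p = 0.581). A second identifier, HBEGF ENSDARG00000031246, was under 1 in all single positive libraries and at 35.8, 0.163, 11.7 and 8.19 in double positive libraries 1, 2, 4 and 5, but was too low to be tested.

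Genes of extracellular vesicle formation, in which CD63, CD81 and CD9 are used as vesicle markers, gave 0 calls among 15 tested genes by limma. Of all tested genes 6.69% were called in either direction, so 0 of 15 is near that share. An unadjusted p under 0.05 was found for 2 of the 15, against 1932 of all 10127 genes. The median log2 fold change was 0.42 and 12 of the 15 were above 0, as were 4431 of all 10127. The ESCRT gene chmp4ba had 573 ± 67.7 and 497 ± 43.9 normalized counts and the ALIX gene pdcd6ip 329 ± 122 and 378 ± 20.8 (SD, n = 4 each). Neither passed, with limma adjusted p of 0.657 and 0.648. Values of RAB11A, STAM and chmp4bb also did not pass (limma adjusted p from 0.260 to 0.883).

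Partners of CD37, CD81 and CD53 in lymphoid cells gave 1 call, lower, among 15 tested genes, a share near the 6.69% of all genes called in either direction. The B cell receptor chain gene cd79a had 35.0, 16.5, 83.6 and 3.53 normalized counts in single positive libraries 1, 2, 4 and 5, and 0.043 to 0.326 in double positive libraries. Its log2 change of -4.27 (SE 1.17) passed at a limma adjusted p of 0.0357. The call ended when any library other than single positive library 5 or double positive library 1 was left out, with limma adjusted p up to 0.137, and with 5 as the added constant (0.0542). The list median of -0.19 was close to that of all genes. The antigen presentation genes cd74a and cd74b were abundant in both populations, at 7551 ± 781 and 5558 ± 1273 and at 2524 ± 217 and 2245 ± 469 normalized counts (SD, n = 4 each). The log2 fold change of cd74a was -0.47 (limma adjusted p = 0.121), and it was called lower with quantile normalization (-0.89, limma adjusted p = 3.76e-05) and without double positive library 4. The phosphatase gene ptprc, of the pan-leukocyte antigen CD45, had 1014 ± 220 and 1061 ± 237 (SD, n = 4 each), with a log2 fold change of 0.06 (limma adjusted p = 0.920). SOCS3 ENSDARG00000026611, of a cytokine signalling inhibitor that binds CD37 in mammals, had 158 ± 85.4 and 338 ± 56.9 (SD, n = 4 each, log2 fold change 1.37, limma adjusted p = 0.0742). It was called higher with median centring (limma adjusted p = 0.00359) and without double positive library 1. The other SOCS3 identifier, ENSDARG00000025428, had a log2 fold change of 0.42 (limma adjusted p = 0.621). For PIK3R1 the limma adjusted p was 0.869.

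**Figure D5:**
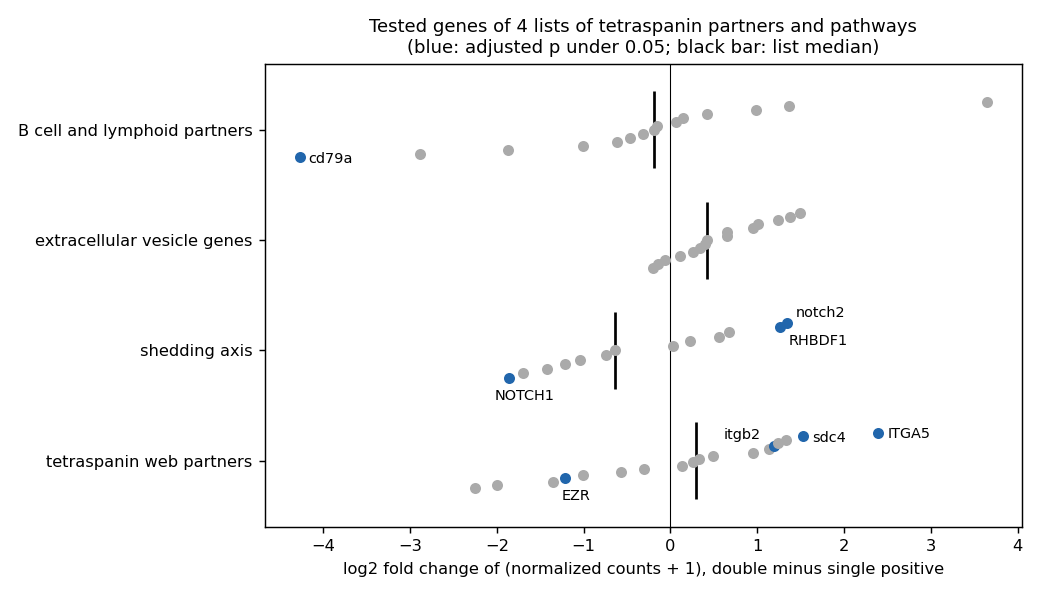
Log2 fold changes, double minus single positive on log2(normalized counts + 1), of the tested genes of 4 lists, with 1 point per gene stacked vertically by value for display. Blue marks adjusted p under 0.05 and the black bar the list median; the medians are 0.29 for web partners, -0.64 for the shedding axis, 0.42 for extracellular vesicle genes and -0.19 for lymphoid partners.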

How the data were processed

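RNA sequencing measured gene expression in 8 libraries of sorted cells. What the authors deposited is a linear signal per gene and library, which they call normalized counts. The submitters' processing notes name CASAVA 1.8.2, cutadapt, RSEM 1.2.3 and the genome build Zv9. Neither the normalization nor the annotation is stated in the labels. All values exceed 0, so values under 1 may come from the normalization, and depth is unknown. No coordinates are printed.

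Symbols came from a table that matched 8512 of 10479 identifiers (81.2%). Genes with a CPM, computed here from the column total, of at least 1 in at least 4 libraries were tested, 10127 in all. Values were taken to log2(value + 1) and tested with limma 3.58.1 in R 4.3.3, two-sided, with library batch as covariate and a mean-variance trend, with Benjamini-Hochberg adjustment over all tested genes. If the authors already adjusted for batch, the standard errors and p-values may be too small, which matters most near 0.05. Exact permutation tests used scipy 1.17.1. The fit was first tested on simulated data.

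The members and lists were chosen with earlier results of these data known. Named from each list were all called genes and up to 5 others of highest mean. Further family members, cd22, csf1rb, the other markers, HBEGF and the other RHBDF1, ADAM17, EZR, ITGB1 and SOCS3 identifiers were named after their values were seen. The fixed family list ended at TSPAN33, and tspan36 and tspan37 were added. List symbols were matched regardless of case and with any paralog letter. The alternatives tried were other added constants, filters, scalings and variance models, no batch term, a replicate block, single batches and leaving out each library. Whether same-numbered libraries are paired could not be told, and the main fit is unpaired.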

Additional observations from a re-analysis of the deposited data

Results flagged for a closer look

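In a group of 4 libraries a value was marked when its gap to the nearest other value took up more of the whole range than Dixon's 95% critical value, which chance alone meets in about 1 of 20 groups. Of 98 groups examined, from 49 genes, 7 were marked. The markers marco and MPEG1 ENSDARG00000043093 were not among the 49. They too stood high in single positive library 1, at 92.2 and 89.5, against at most 10.2 and 16.9 in the rest of that population. RHBDF1 ENSDARG00000017367 was not among the 49 either.

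For cd9b, single positive library 1 was marked at 11.8 normalized counts where the rest of that population had 0.154 to 0.482. CD82 ENSDARG00000026070 was marked in double positive library 4, at 11.1 against 0.455 to 1.54. In the same library TSPAN18 ENSDARG00000015015 stood at 2.12 against 0.0192 to 0.180. TSPAN6 was at 29.7 in single positive library 2 against 0.0646 to 4.89, and tspan5b at 6.90 in double positive library 5 against 0.164 to 0.298. Among vesicle genes, pdcd6ip was at 509.5 in single positive library 5 against 246 to 289, and chmp4bb at 219.5 in double positive library 2 against 90.5 to 111.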

How the results depend on the processing

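The directions of cd9b and cd37 were the same under all 19 alternatives, and their log2 fold changes moved by more than the spread between replicates only with another added constant, to 7.59 and -8.48 with 0.1 and to 4.63 and -4.74 with 5. The constant sets the floor that the near-absent population is given. The reference tetraspanins called higher numbered 2, and 0 without the mean-variance trend, 1 with a replicate block, 0 in batch 1 alone and 0 to 2 when 1 library was left out. The number called lower was 1, and 0 in batch 1 alone, 0 in batch 2 alone and 0 to 1 when 1 library was left out. Over all genes the 393 higher became 124 without the mean-variance trend, 0 in batch 1 alone and 169 to 497 when 1 library was left out. The 285 lower became 176 with the replicate block, 0 in batch 1 alone, 152 in batch 2 alone and 101 to 308 when 1 library was left out. The higher count moved by over 1.5 times when library 4 (248) or 5 (259) of the single or library 4 (176) or 5 (169) of the double positive population was left out, and the lower count when library 1 (136), 2 (136), 4 (109) or 5 (127) of the single or library 4 (145) or 5 (101) of the double positive population was. Each single batch holds 2 libraries per population and the cause of the other shifts was not tested. Deviations of same-numbered libraries from their group means had correlations of -0.29 to -0.11. Different-numbered libraries of the same batch had -0.26 to -0.10. Batch was not removed from these deviations, so they cannot tell whether the replicate numbers pair the libraries. With the block, CD63 had an adjusted p of 0.0747, and RHBDF1 and cd79a lost their calls too. Of 11 genes of the tetraspanin and partner lists that were called, 9 lost their calls without the mean-variance trend (all but CD82 and cd79a), 11 in batch 1 alone and 4 in batch 2 alone (CD82, EZR, NOTCH1 and cd79a). The 11 kept their sign under each alternative that tested them. Alternatives for the markers were added after the values were seen: the 13 macrophage markers became 6 without the mean-variance trend, 0 in batch 1 alone and 9 to 13 when 1 library was left out, and the 5 B lymphocyte markers 3 with the block, 0 in batch 1 alone, 3 in batch 2 alone and 3 to 5. Of 670 alternative values of genes called in neither fit, 43 had the opposite sign, from 17 genes. All tested genes had a median log2 change of -0.16, and 0.12 with median centring and -0.04 with quantile normalization.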
